A study of Mus musculus with 6 samples.

Results

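Complement genes were followed as a set of 9 members, taken by their symbols from the 31053 genes counted in each matrix. The members were the chains of C1q (C1qa, C1qb, C1qc), the central component C3, component C4b, factor B (Cfb), the C1 inhibitor Serping1, and the receptors C3ar1 and C5ar1. All 9 were measured, and those with at least 100 UMIs over the 6 replicates, the minimum for a test, numbered 7, 6, 3, 2 and 1 in the 5 cell classes described here and 9 over all cells.

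Complement is a cascade of plasma and tissue proteins that tags cells and debris for removal and recruits leukocytes. C1q binds its targets and activates the proteases C1r and C1s, which cleave C4 and C2 to build the classical C3 convertase, while factor B serves the convertase of the alternative pathway, and both split C3. C3a and C5a, the released fragments, act on the receptors encoded by C3ar1 and C5ar1, and Serping1 encodes the inhibitor that blocks C1r and C1s. Tissue macrophages are a well known source of C1q, and fibroblasts of several classical-pathway proteins.

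The samples came from the mouse melanoma cell line YUMM2.1 by label, with the Empty vector group and the Bmal1 WT group differing in the vector named, and the question was how Bmal1 status moved the transcriptome. Droplet 3′ single-cell RNA sequencing (10x Genomics) was run on 1 droplet channel per group, and 3 replicates in each group carried antibody hashtags (h1, h7 and h8 for Empty vector, h3, h5 and h9 for Bmal1 WT). No treatment, time point, age or host was given in the labels, and the numbers marking the replicates did not pair them across groups. Because each group filled 1 channel, group and channel cannot be told apart, and p-values measured only the spread between the hashtagged replicates. Files for another group, Bmal1 bHLH, repeated the Bmal1 WT matrix byte for byte and were not used.

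After filtering, 3978 Empty vector and 2386 Bmal1 WT cells remained, with a median of 5094 and 7570.5 UMIs (unique molecular identifiers, each counting 1 captured RNA molecule) per cell. Exactly 1 hashtag was found on 3222 and 1621 of them, and the replicates held 326 to 1403 cells. The libraries shared 5 barcodes. Cells fell into 25 clusters made without the complement genes, and these were named from marker lists as macrophage-like (127 Empty vector and 115 Bmal1 WT cells), inflammatory monocyte-macrophage-like (320 and 155), monocyte-like (295 and 149), fibroblast-like (143 and 213) and melanoma-like (53 and 118). All 10 fibroblast markers were detected in every fibroblast-like replicate, whereas the melanoma-like cells lacked Mlana in every replicate and held Sox10 in 5 of 6. Of the fibroblast-like cells 263 and of the melanoma-like cells 106 carried no hashtag, so their replicates were small (9 to 19 and 1 to 27 cells). Bmal1 itself (Arntl) stood at 54.8, 0 and 52.2 UMIs per 1000000 (CPM) in the melanoma-like Empty vector replicates h1, h7 and h8, and at 54.9, 60.8 and 143 CPM in h3, h5 and h9. The groups overlapped. Whether 3′ tags of a vector transcript were counted as Arntl is not known, so this level did not check the labels.

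The 3 C1q genes lay side by side on the minus strand of chromosome 4 (mm10, GENCODE M21), within 18.7 kb between positions 136880129 and 136898803. C3 (chr17:57203970-57228136), C4b (chr17:34728380-34743882) and Cfb (chr17:34856374-34862518) lay on chromosome 17, Serping1 on chromosome 2 (chr2:84765387-84775444), C3ar1 on chromosome 6 (chr6:122847138-122856161) and C5ar1 on chromosome 7 (chr7:16246743-16259540), each on the minus strand. Cfb overlapped Gm20547 on the same strand, and C4b had a near-identical copy, C4a (chr17:34809092-34823464), which was not among the counted genes, so the counts of Cfb and C4b are uncertain. Promoter windows from 250 bases before to 50 bases after the RefSeq start (GRCm38.p6) were matched for 5 members, C1qb, C1qc, C3, C3ar1 and C5ar1. The windows of C1qb (chr4:136886151-136886450), C1qc (chr4:136892865-136893164) and C3 (chr17:57228087-57228386), all on the minus strand, are shown because the C1q chains shared 1 leading class by cluster, while C3 was spread over several. Capitals mark matches on either strand to 4 short motifs: CACGTG (the E-box bound by Bmal1 with Clock), GAGGAA (the core of PU.1 sites), TTNNGNAA (C/EBP) and the interferon response element.
C1qb: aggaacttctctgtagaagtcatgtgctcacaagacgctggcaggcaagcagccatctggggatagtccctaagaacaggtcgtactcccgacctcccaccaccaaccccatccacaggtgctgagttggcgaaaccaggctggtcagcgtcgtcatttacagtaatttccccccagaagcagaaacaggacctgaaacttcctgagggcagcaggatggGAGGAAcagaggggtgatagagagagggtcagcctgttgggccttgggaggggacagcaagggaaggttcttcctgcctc
C1qc: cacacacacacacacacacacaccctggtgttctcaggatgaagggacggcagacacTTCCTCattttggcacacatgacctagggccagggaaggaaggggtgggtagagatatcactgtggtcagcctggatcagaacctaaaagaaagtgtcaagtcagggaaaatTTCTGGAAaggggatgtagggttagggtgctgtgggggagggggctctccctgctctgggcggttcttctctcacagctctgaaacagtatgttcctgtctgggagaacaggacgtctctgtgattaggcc
C3: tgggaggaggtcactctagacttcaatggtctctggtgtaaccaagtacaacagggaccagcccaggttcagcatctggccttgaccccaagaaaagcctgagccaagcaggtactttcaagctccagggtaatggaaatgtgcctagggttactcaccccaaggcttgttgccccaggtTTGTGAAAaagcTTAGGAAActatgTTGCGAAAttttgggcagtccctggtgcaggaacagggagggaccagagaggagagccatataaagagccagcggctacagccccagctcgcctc
C1qb held 1 match to GAGGAA, starting 30 bases before the start site, and C1qc held 1 on the opposite strand, first base at -193. C3 held 3 matches to TTNNGNAA at -70, -58 and -45, where C1qc and C5ar1 held 1 each. CACGTG and the interferon response element were in none of the 5 windows, and C3ar1 held none of the 4 motifs. Among 32851 promoter windows in the table, 7.15% held CACGTG, 28.3% GAGGAA, 40.7% TTNNGNAA and 3.44% the interferon response element, on either strand. A match describes letters and is not a binding site.

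By cluster, most members had 1 leading class, and C3 and Cfb had several. Macrophage-like cells held 87.2% of the 4640 C1qa UMIs, 79.7% of the 3681 C1qb UMIs and 82.6% of the 2880 C1qc UMIs. C3 was spread over myeloid classes and fibroblasts, with 34.8% of 2866 UMIs in monocyte-like, 28.5% in inflammatory monocyte-macrophage-like, 18.9% in macrophage-like and 13.4% in fibroblast-like cells. Melanoma-like cells held 77.2% of the 1712 C4b UMIs, and fibroblast-like cells 99.7% of the 2864 Serping1 UMIs. Inflammatory monocyte-macrophage-like cells led for both receptors, with 61.2% of 3063 C3ar1 UMIs and 57.6% of 1451 C5ar1 UMIs. Cfb was scarce everywhere, with 159 UMIs in all, of which inflammatory, macrophage-like, fibroblast-like and monocyte-like cells held 30.2%, 27.7%, 16.4% and 14.5%. These shares describe clusters and carry no test. They depend on how cells were classed: with cells gated singly by their markers, the macrophage-like gate (113 cells) held 58.6% of C1qa, 47.8% of C1qb and 53.2% of C1qc UMIs, and the inflammatory gate 30.5%, 36.0% and 35.1%. The monocyte-like gate then held 52.6% of C3 UMIs, and the inflammatory gate 55.1% of C3ar1 and 47.5% of C5ar1 UMIs.

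**Figure D1:**
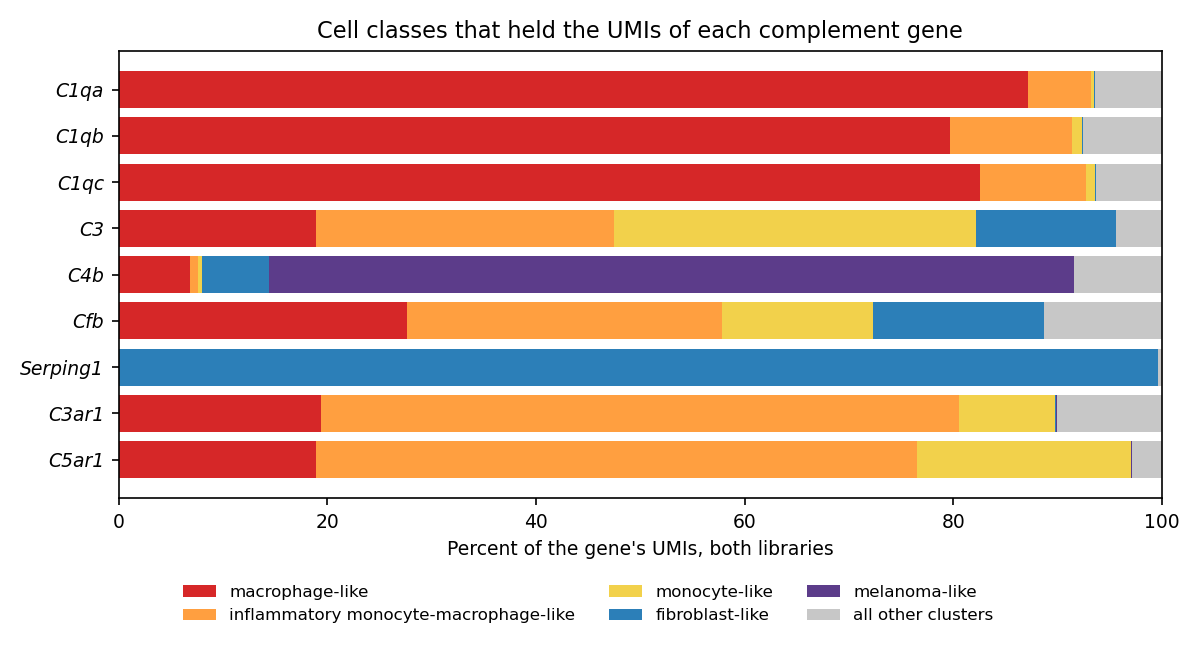
Percent of each complement gene's UMIs (x axis, both libraries added) held by 5 named cell classes and by all other clusters (colours). C1q chains sit mostly in macrophage-like cells (79.7% to 87.2%), C4b in melanoma-like cells (77.2%) and Serping1 in fibroblast-like cells (99.7%), while C3 and Cfb are split among several classes.

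By level, C1qa stood at 1457 CPM in macrophage-like cells, 68.3 in inflammatory monocyte-macrophage-like, 4.32 CPM in monocyte-like cells, with 2 UMIs in the 1299 T-cell-like cells, which should lack the gene. With cells gated singly C1qa was at 2168 CPM in the macrophage-like, 88.2 in the inflammatory and 46.6 CPM in the monocyte-like gate. C1qb and C1qc followed the same order by cluster, at 1057 and 857 CPM in macrophage-like cells, with 10 and 3 UMIs in T-cell-like cells. Melanoma-like cells held 1 UMI of the 3 chains in all. The chains were found together: 58 of 127 Empty vector and 62 of 115 Bmal1 WT macrophage-like cells carried a UMI of each of C1qa, C1qb and C1qc. Their proportions were close in both libraries, with C1qa making 42.4% and 43.6%, C1qb 30.3% and 31.8%, and C1qc 27.3% and 24.6% of the macrophage-like C1q UMIs. In the inflammatory class the mix was different, with C1qa at 31.7% and 20.5% and C1qb at 41.3% and 45.9%.

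The macrophage-like class was not uniform for C1q. No C1q UMI was found in 45 of 127 Empty vector cells (35.4%, 95% exact binomial interval 27.2 to 44.4) and in 25 of 115 Bmal1 WT cells (21.7%, 14.6 to 30.4), while 18 and 28 cells held 50 or more. The 13 and 12 richest cells held 50.9% and 51.9% of the class's C1q UMIs. Over both libraries 150 cells had 10 or more C1q UMIs, of which 116 were macrophage-like and 24 inflammatory monocyte-macrophage-like. Within the inflammatory class these were few, 16 of 320 and 8 of 155, and the 32 and 16 richest cells held 94.7% and 93.7% of its C1q UMIs. A C1q UMI was found in 5.76% and 5.37% of monocyte-like cells and in 0.634% and 2.27% of T-cell-like cells without thinning.

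**Figure D2:**
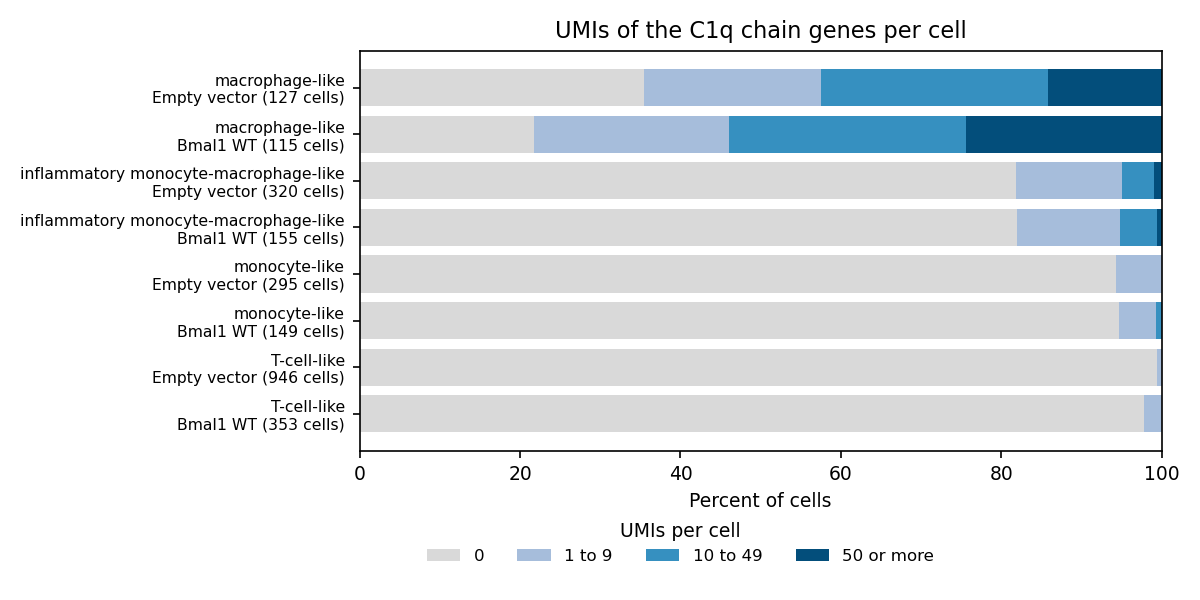
Percent of cells (x axis) by the number of C1qa, C1qb and C1qc UMIs in the cell (shades), for 4 cell classes in each library, with the number of cells. In macrophage-like cells 35.4% (Empty vector) and 21.7% (Bmal1 WT) held no C1q UMI, while nearly all T-cell-like cells held none.

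To compare the share of C1q-bearing macrophage-like cells between groups, each cell was thinned to 2000 UMIs, which left out 8 Empty vector and 26 Bmal1 WT cells below that depth. The share stood at 59.5%, 56.1% and 40.6% in h1, h7 and h8 and at 53.3%, 78.4% and 71.4% in h3, h5 and h9, on 14 to 41 cells each. The h3 value lay among the Empty vector values, so the groups overlapped. The means were 52.1% ± 10.0 and 67.7% ± 12.9 (SD, n = 3), a difference of 15.7 percentage points that did not pass a two-sided exact permutation test (p = 0.3, smallest possible 0.1). Without thinning the shares were 69.2%, 69.8% and 48.5% against 65.6%, 83.0% and 78.9%. Thinned T-cell-like cells carried a C1q UMI in 0.368% and 1.19% of cells.

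Within macrophage-like cells no member passed the edgeR test at an adjusted p of 0.05, as no gene did (0% of 3922 tested genes). At an unadjusted p under 0.05 stood 3 of the 7 members tested, where 12.3% of tested genes did, and the 3 were C1qa, C1qb and C4b. DESeq2 gave 3 members an adjusted p and called 1, C1qb, where it called 3.55% of the 197 genes given one. Without the minimum of 100 UMIs edgeR called 4 of 8 members, C1qa, C1qb, C1qc and C4b, beside 1.36% of 13460 genes. C1qb was at 729, 727 and 522 CPM in h1, h7 and h8 and at 896, 1868 and 1035 CPM in h3, h5 and h9. Every Bmal1 WT replicate lay above every Empty vector replicate, as 19.4% of tested genes did not overlap in either direction, and the log2 fold was 0.94 ± 0.28 (SE, adjusted p = 0.291). C1qa was at 829.6, 1205 and 729.6 CPM against 1103, 2799 and 1059.6 CPM. C1qc was at 589.9, 733 and 436 CPM against 592, 1539.9 and 725 CPM. Replicate h5 was the highest for each chain, and h3 and h9 lay within the Empty vector range for C1qa and C1qc (log2 fold 0.85 ± 0.37 and 0.70 ± 0.34, adjusted p = 0.391 and 0.429 in edgeR). Without h5 the log2 folds of C1qa, C1qb and C1qc were 0.23, 0.55 and 0.16. The median log2 fold of the 7 members tested was 0.70 beside -0.08 for all tested genes, and 4 members were higher and 3 lower in Bmal1 WT.

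Marker lists were also summed by replicate in this class, and of those given here only the classical monocyte list separated the groups. Classical monocyte markers summed to 4419 to 5793 CPM in the Empty vector replicates and 2518 to 3934 CPM in the Bmal1 WT replicates, without overlap, with all 8 markers detected in every replicate. Inflammatory markers summed to 8524 to 11721 CPM against 3362 to 8594 CPM, and macrophage markers to 3541 to 6155 CPM against 6039 to 6649 CPM, both with overlap. Of the macrophage markers Gpnmb was at 0 in 5 replicates and Folr2 in 3. Neutrophil markers were at 2893 CPM in h9 and at most 90.3 CPM in the other replicates. Gated cell by cell instead of by cluster, 67 of the 242 macrophage-like cells were macrophage-like, 118 inflammatory and 47 monocyte-like. Their part in the C1q values was not tested.

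**Figure D3:**
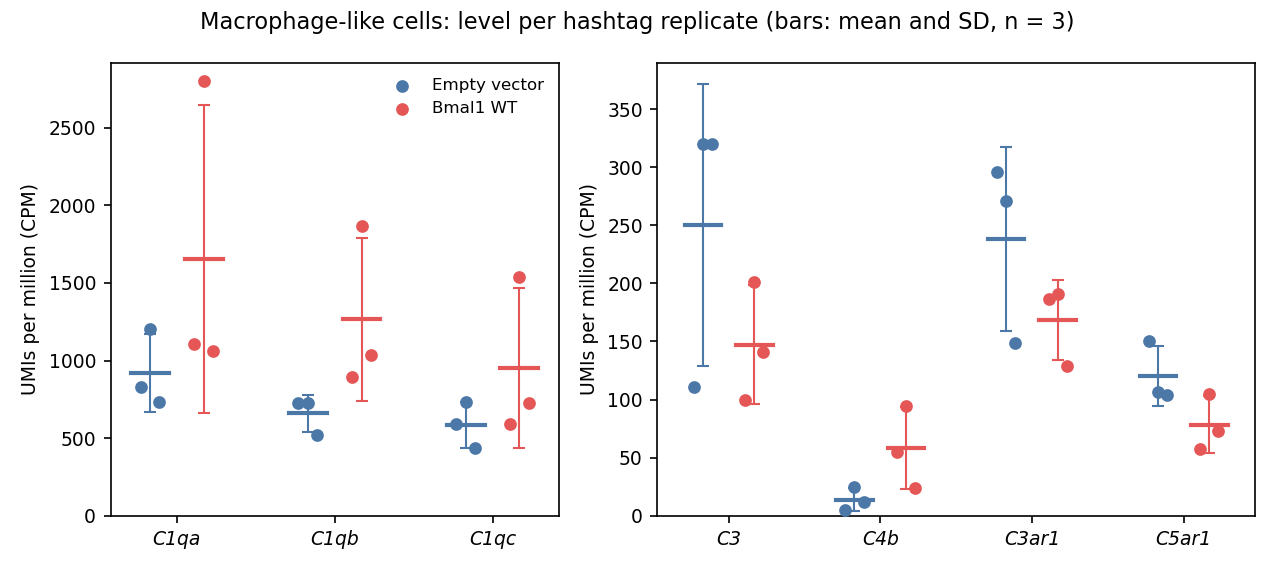
UMIs per 1000000 (y axis, linear, from 0) in macrophage-like cells for each hashtag replicate (points), with the mean and SD of 3 replicates per group. C1qb shows no overlap (522 to 729 against 896 to 1868 CPM), and for the other genes shown the replicates of the groups overlap.

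C4b, whose product is cleaved by C1s, was mostly a transcript of melanoma-like cells. It stood at 213 CPM there and at 42.1 CPM in macrophage-like cells, with 109 UMIs in fibroblast-like and 8 in T-cell-like cells. A larger unnamed cluster led by Klk6 (50 and 179 cells), which also held the melanoma gene Sox10 (161 and 73.4 CPM against 274 and 236 CPM in the melanoma-like cells), had 1.32 CPM of C4b. Of the cells with 5 or more C4b UMIs, 20 Empty vector and 34 Bmal1 WT cells were melanoma-like, against 0 and 2 in the Klk6 cluster. A small unnamed cluster led by Cavin2, with a median of 2440.5 and 1392.5 UMIs per cell, held C4b at 66.2 and 164 CPM. C4b was found in some clusters holding Sox10 and was nearly absent from another.

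Between groups, melanoma-like C4b was at 164, 0 and 193 CPM in h1, h7 and h8 and at 472, 188 and 23.8 CPM in h3, h5 and h9. The zero rests on 1 cell with 1029 UMIs, the value of h9 on 2 cells, and the groups overlapped on both sides (log2 fold 0.51 ± 0.60, adjusted p = 0.9998 in edgeR, n = 3). No gene was called in this class (0% of 5070 tested), where 3.25% had an unadjusted p under 0.05 and 8.01% did not overlap. C4b, the member with enough UMIs for a test, was in neither share, and neither DESeq2 (0% of genes) nor edgeR without the UMI minimum (0.00713%) called it. With melanoma-like cells lacking a hashtag added, C4b was at 255 CPM (496 UMIs) in Empty vector and 194 CPM (826 UMIs) in Bmal1 WT, so the direction turned.

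In macrophage-like cells C4b was at 4.70, 24.6 and 11.9 CPM in h1, h7 and h8 and at 55.2, 94.5 and 24.2 CPM in h3, h5 and h9. Replicate h9 lay just below h7, so the groups overlapped (log2 fold 2.11 ± 0.58, adjusted p = 0.291 in edgeR). The counts behind it were 2, 12 and 4 UMIs against 26, 62 and 6, and single cells gave 19 of the 26 in h3 and 20 of the 62 in h5. Sox10 was at 0 UMIs in these cells in every replicate, as were Mlana, Pmel, Dct, Tyrp1 and Tyr. The part of melanoma RNA in these counts was not tested.

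C3 was at 307 CPM in monocyte-like cells, 198 in inflammatory monocyte-macrophage-like, 196 in macrophage-like and 59.8 CPM in fibroblast-like cells, with 0 UMIs in 171 melanoma-like cells. With cells gated singly it was at 200, 46.8, 119 and 60.2 CPM in the first 4 of these. In monocyte-like cells C3 was at 284, 409 and 340.1 CPM in h1, h7 and h8 and at 327, 151 and 309.7 CPM in h3, h5 and h9. The Bmal1 WT replicate h5 was the lowest and the others fell inside the Empty vector range (log2 fold -0.33 ± 0.25, adjusted p = 0.654 in edgeR). Macrophage-like C3 was at 110.5, 320.2 and 320.3 CPM against 99.7, 201 and 141 CPM, and inflammatory C3 at 146, 645 and 284 CPM against 165, 296 and 95.8 CPM. Both overlapped (log2 fold -0.75 ± 0.40 and -0.70 ± 0.52, adjusted p = 0.463 and 0.702), and the 645 CPM of h7 came from 6 cells. Within monocyte-like cells C3 was at 121 CPM in the subcluster of 45 cells where all 8 non-classical monocyte markers were raised and at 265 to 386 CPM in the 3 larger subclusters. By library, the larger subclusters held C3 at 231, 381 and 268 CPM in Empty vector and 317, 403 and 323 CPM in Bmal1 WT. The 45 cells held 114 and 126 CPM, and a subcluster of 9 and 4 cells held 412 and 125 CPM. Only in the last did the Poisson intervals not overlap. The negative class fold thus ran against most of these values, which compare 1 library per group, and the part of the subcluster mix was not tested.

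Fibroblast-like C3 varied most. It was at 209.7, 9.55 and 90.4 CPM in h1, h7 and h8 and at 56.6, 11.8 and 46.9 CPM in h3, h5 and h9, and 45 of the 48 UMIs of h1 lay in 1 cell. The groups overlapped (log2 fold -1.36 ± 0.80, adjusted p = 0.756 in edgeR). In fibroblast-like cells without a hashtag C3 was at 121 CPM (98 cells, 95% Poisson interval 105 to 139) in Empty vector and at 22.9 CPM (165 cells, 17.8 to 29.0) in Bmal1 WT. These intervals cover counting error only, over 1 library per group, so this difference has no replicate check. It was carried by a minority of cells, since a C3 UMI was found in 30 of 143 and in 31 of 213 fibroblast-like cells. Cfb, with 2 to 22 UMIs per macrophage-like replicate (4.70, 18.5 and 17.8 against 6.37, 33.5 and 8.06 CPM), had too few UMIs for a test in each of the 5 classes.

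Serping1, the inhibitor of C1r and C1s, was confined almost wholly to fibroblast-like cells, at 444 CPM there against 0 UMIs in the macrophage-like, inflammatory, monocyte-like and melanoma-like classes. In the 3 fibroblast-like clusters it stood at 436 and 470.2 CPM (109 and 168 cells, Empty vector and Bmal1 WT), 751 and 504 CPM (29 and 34 cells) and 218 and 282 CPM (5 and 11 cells). A UMI was found in 101 of 143 cells in Empty vector and in 153 of 213 in Bmal1 WT (70.6% and 71.8%), and after thinning in 42.5% and 42.2%. By replicate it was at 589.8, 401 and 523 CPM in h1, h7 and h8 and at 784, 292 and 522 CPM in h3, h5 and h9. The Bmal1 WT replicates held both the highest and the lowest value (log2 fold 0.08 ± 0.35, adjusted p = 0.987 in edgeR). Cells without a hashtag gave 398 CPM (368 to 430.1) and 423 CPM (400.4 to 447.5). Neither C3 nor Serping1 had an unadjusted p under 0.05 in the class, DESeq2 called neither (0.227% of genes called), and edgeR called none of 3087 genes (0%, with 6.96% under an unadjusted p of 0.05 and 12.8% without overlap). Without the UMI minimum edgeR called 1 of 6 members, C3, beside 1.31% of 14229 genes.

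**Figure D4:**
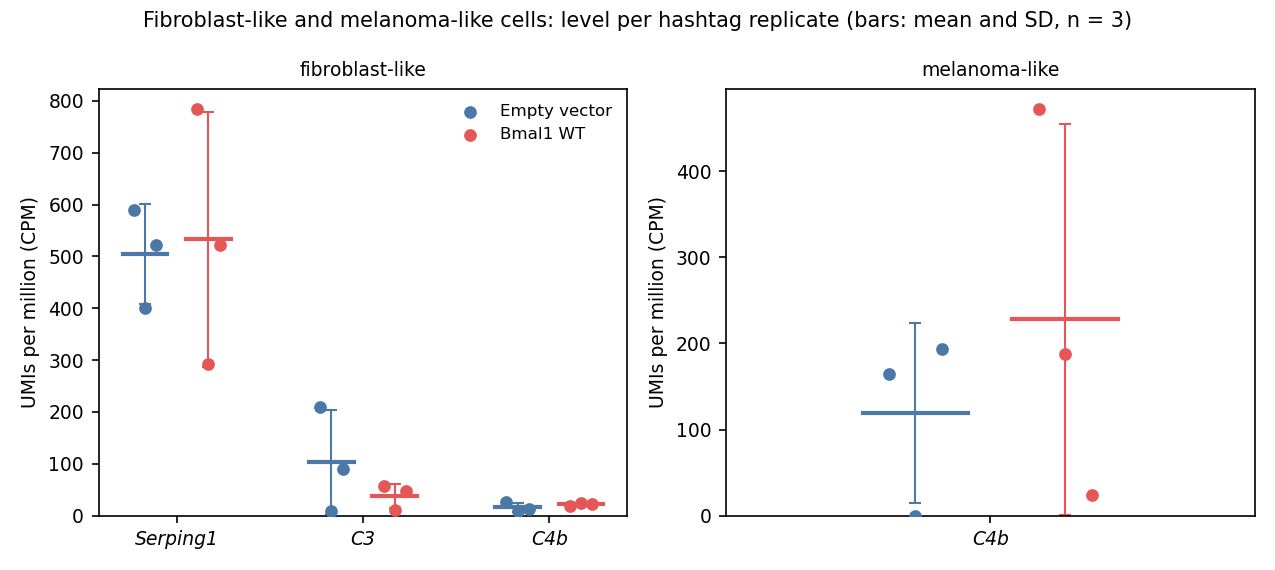
UMIs per 1000000 (y axis, linear, from 0) in fibroblast-like cells (left) and melanoma-like cells (right) for each hashtag replicate (points), with the mean and SD of 3 replicates per group. The replicates of the groups overlap for every gene shown, and the melanoma-like point at 0 CPM is a replicate with 1 cell.

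The receptors for C3a and C5a shared an order of classes, which depended on how cells were classed. By cluster, C3ar1 was at 454 CPM in inflammatory monocyte-macrophage-like, 214 in macrophage-like and 87.3 CPM in monocyte-like cells, and C5ar1 at 203, 99.1 and 91.6 CPM. With cells gated singly the inflammatory gate came last of these. C3ar1 was then at 105, 269 and 113 CPM and C5ar1 at 42.9, 123 and 76.3 CPM in the inflammatory, macrophage-like and monocyte-like gates. Mast-cell-or-basophil-like cells (23 cells) held 50.9 and 58.1 CPM, while T-cell-like cells held 6 and 3 UMIs and fibroblast-like cells 2 UMIs of C3ar1 and 0 of C5ar1. Many inflammatory cells carried both, 119 of 320 in Empty vector and 65 of 155 in Bmal1 WT, where 40 of 295 and 17 of 149 monocyte-like cells did. In the monocyte-like subclusters C3ar1 was at 161 CPM in cells led by the interferon-response genes Iigp1 and Ccl12 (138 cells) and at 0 UMIs in the 45 non-classical cells, which held C5ar1 at 60.6 CPM. The Klk6 cluster held 7.05% of all C3ar1 UMIs at 12.9 CPM, in 15 of its 50 Empty vector and 54 of its 179 Bmal1 WT cells. These cells were deep, at a median of 60135 and 59641 UMIs, and after thinning a UMI was left in 3 of 48 and 3 of 176 cells.

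C3ar1 was lower in Bmal1 WT without overlap in 2 classes, yet passed the test in none. In monocyte-like cells it was at 136, 67.4 and 76.5 CPM in h1, h7 and h8 and at 56.2, 40.8 and 5.25 CPM in h3, h5 and h9. The value of h9 rests on 1 UMI in 26 cells, and without h3 the log2 fold was -2.17 (with it -1.28 ± 0.44, adjusted p = 0.289 in edgeR). In inflammatory monocyte-macrophage-like cells it was at 553, 512 and 456 CPM against 401, 353 and 337 CPM. Each Bmal1 WT replicate lay below each Empty vector replicate (log2 fold -0.47 ± 0.20, adjusted p = 0.554). Groups did not overlap for 19.1% of 4249 tested genes in the monocyte-like and 17.1% of 4419 in the inflammatory class, and none was called in either (0%). At an unadjusted p under 0.05 stood 1 of 3 and 1 of 6 members, in both cases C3ar1, beside 12% and 8.76% of tested genes. DESeq2 gave C3ar1 no adjusted p in the monocyte-like class, where C3 was the member given one and was not called (1.05% of 953 genes were), and called none of 6 members in the inflammatory class (0% of genes). Without the UMI minimum edgeR called monocyte-like C3ar1, 1 of 8 members, beside 1.16% of 13149 genes, and 0 of 8 inflammatory members, beside 0.711% of genes. Macrophage-like C3ar1 was at 296, 271 and 148 CPM against 187, 191 and 129 CPM, which overlapped (log2 fold -0.49 ± 0.28, adjusted p = 0.487).

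The monocyte-like C3ar1 values were split by subcluster. In the Iigp1 subcluster it was at 159 CPM in 111 Empty vector cells and 167 CPM in 27 Bmal1 WT cells, with overlapping Poisson intervals (136 to 186 and 120 to 226), and the subcluster made up 111 of 295 and 27 of 149 monocyte-like cells. In the largest subcluster, led by Egln3, it was at 131 CPM (96.0 to 175) and 55.6 CPM (29.6 to 95.1). These values compare 1 library per group. Neutrophil markers in the monocyte-like class summed to 2470 and 4037 CPM in h5 and h9, and to 105 to 300 CPM in the other 4 replicates, and their part in the receptor values was not tested.

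C5ar1 did not separate the groups. It was at 99.7, 55.5 and 76.5 CPM against 54.7, 75.7 and 157 CPM in monocyte-like cells and at 229, 531 and 178 CPM against 149.5, 74.8 and 362 CPM in inflammatory cells. Single replicates, h9 in the first class and h7 (6 cells) in the second, were the highest. In macrophage-like cells it was at 150.4, 107 and 104 CPM against 57.3, 105 and 72.5 CPM, with 105 CPM of h5 just above the 104 CPM of h8 (log2 fold -0.59 ± 0.27, adjusted p = 0.418 in edgeR). The log2 folds in the monocyte-like and inflammatory classes were 0.07 ± 0.37 and -0.46 ± 0.53 (adjusted p = 0.966 and 0.823).

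**Figure D5:**
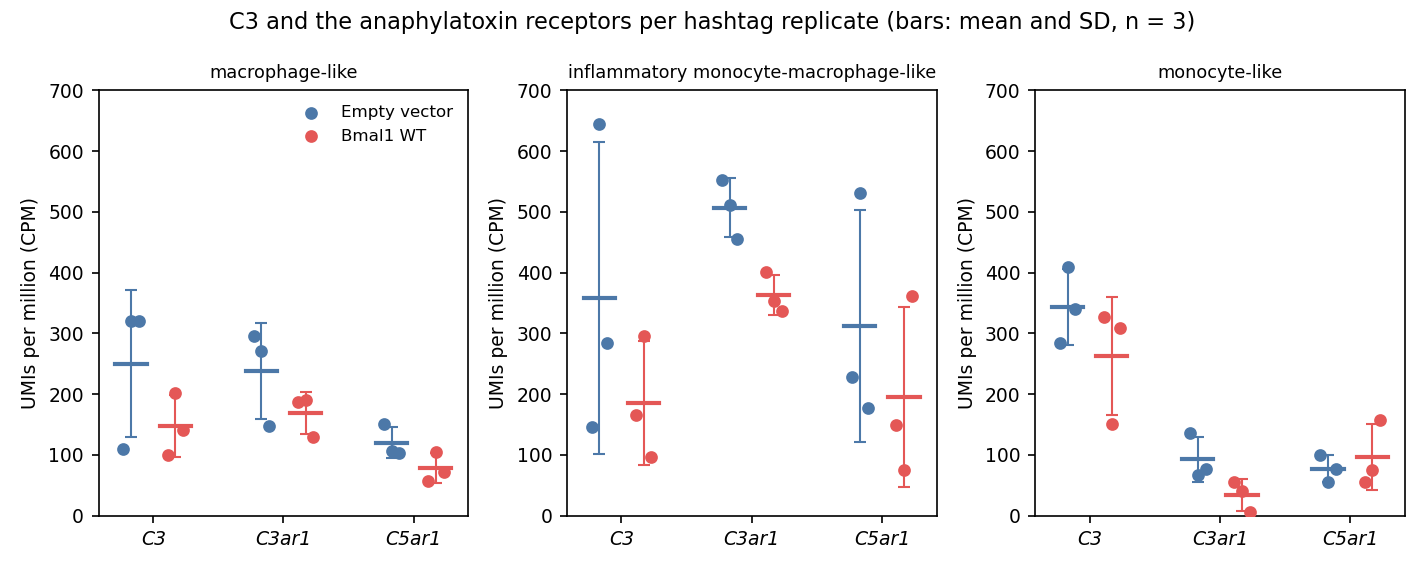
UMIs per 1000000 (y axis, linear, 0 to 700) of C3, C3ar1 and C5ar1 in the 3 myeloid classes for each hashtag replicate (points), with the mean and SD of 3 replicates per group. C3ar1 does not overlap in inflammatory monocyte-macrophage-like cells (456 to 553 against 337 to 401 CPM) or in monocyte-like cells (67.4 to 136 against 5.25 to 56.2 CPM), and C3 and C5ar1 overlap in every class.

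The C1q chains, moderate in the inflammatory class, had negative folds there and were not called: C1qa was at 136, 19.0 and 15.6 CPM against 48.5, 60.6 and 14.2 CPM, and C1qb at 168, 189.6 and 43.0 CPM against 87.6, 157 and 81.6 CPM. Both overlapped widely (log2 fold -0.76 ± 0.71 and -0.13 ± 0.50, adjusted p = 0.774 and 0.963 in edgeR). Whether the group effect differed between macrophage-like and monocyte-like cells was tested as an interaction over 12 sums with the replicate as a block. No member passed (0 of 7 tested, with the smallest adjusted p at 0.925 for C5ar1), whereas 2 of 6066 genes did. The difference of log2 folds, macrophage-like minus monocyte-like, was 2.54 ± 1.37 for C4b, 0.86 ± 0.43 for C3ar1 and -0.80 ± 0.39 for C5ar1. It was -0.59 ± 0.81 for C1qa, 0.42 ± 0.83 for C1qb, 0.32 ± 0.93 for C1qc and -0.29 ± 0.46 for C3. C4b and the C1q chains reached the UMI minimum only through the macrophage-like cells. The monocyte-like replicates held 4 (Empty vector) and 2 (Bmal1 WT) UMIs of C4b and 4 and 6 of C1qa. They held 18 and 13 of C1qb and 12 and 8 of C1qc. With so few monocyte-like UMIs the interaction cannot decide for these genes.

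Summed over all cells, where fewer cells of a type and less RNA per cell cannot be told apart, none of the 9 members was called, as no gene of 12042 was (0%), and 24.4% of genes stood under an unadjusted p of 0.05. C3 was the only member under that limit and the only one without overlap, at 52.9, 57.1 and 59.9 CPM in h1, h7 and h8 and 48.9, 27.5 and 29.6 CPM in h3, h5 and h9 (log2 fold -0.68 ± 0.23, adjusted p = 0.170 in edgeR), beside 34% of tested genes without overlap. DESeq2 called none of the 8 members it gave an adjusted p, beside 8.48% of 11331 genes. C1qa was at 46.3, 108 and 26.6 CPM against 65.2, 199 and 75.8 CPM, and Serping1 at 11.5, 15.4 and 15.9 CPM against 31.5, 7.54 and 38.4 CPM, both with overlap. Macrophage-like cells numbered 39 of 1403, 43 of 696 and 33 of 1123 cells in h1, h7 and h8. They were 32 of 800, 47 of 495 and 19 of 326 in h3, h5 and h9. Their part in the C1qa values over all cells was not tested.

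Of 42 other complement genes listed, 41 were counted and 17 reached 100 UMIs over all cells. Fibroblast-like cells held the classical-pathway partners, with C1s1 at 363, C1ra at 70.2 and C2 at 30.7 CPM. C2, like Cfb, overlapped Gm20547 on the same strand, so its count is uncertain as well. Macrophage-like cells held properdin (Cfp, which stabilises the alternative convertase) at 189 CPM and the complement receptor subunits Itgam (406), Itgax (268) and Itgb2 (348 CPM). Itgam led in the inflammatory class at 727 CPM, with C5ar2, the second C5a receptor, at 30.5 CPM and Cd93 at 87.2 CPM. Monocyte-like cells held Cfp at 72.8 CPM and Cd93 at 101 CPM. Melanoma-like cells held Cd59a, an inhibitor of the membrane attack complex, at 94.4 CPM, and Cr1l and C1qbp reached 100 UMIs in each of the 5 classes. Genes of the terminal pathway were scarce: Hc, which encodes C5, had 46 UMIs in all, 29 of them in fibroblast-like cells, C6 had 25, each in a macrophage-like cell, and C7 had 0.

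Within classes edgeR called none of these genes, of 7 tested in macrophage-like, 9 in inflammatory, 7 in monocyte-like, 5 in fibroblast-like and 3 in melanoma-like cells. At an unadjusted p under 0.05 stood 2, 1, 0, 0 and 0 of them, beside 12.3%, 8.76%, 12%, 6.96% and 3.25% of tested genes. They included Itgam in macrophage-like cells (log2 fold -1.03 ± 0.31, adjusted p = 0.294) and Cd93 in inflammatory cells (1.39 ± 0.45, adjusted p = 0.488). The median log2 fold of the list was -0.01, 0.19, 0.00, -0.15 and 0.09 in the macrophage-like, inflammatory, monocyte-like, fibroblast-like and melanoma-like classes, beside -0.08, -0.10, -0.04, -0.03 and 0.02 for all tested genes.

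Across 30 class-by-library profiles, which share depth and library, C1qa was most alike C1qc (r = 0.98) and C1qb (r = 0.96) and, outside the members, Ccl24 (0.93), the mannose receptor Mrc1 (0.89) and the coagulation factor F7 (0.84). C3 was alike Emilin2 and Dram1 (0.96 and 0.96). C4b was alike the sodium pump subunit Atp1b2 (0.90) and Col11a1 (0.90), and its r with the other members lay between -0.08 and 0.10. C5ar1 was most alike the scavenger receptor Msr1 (0.99), C5ar2 (0.98) and Chil3 (0.97), with C3ar1 at 0.96. These are Pearson values of log2(CPM + 10) among 11612 genes and are given as a description.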

How the data were processed

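Per the file headers the authors made the matrices of UMI counts with Cell Ranger 6.1.2, and the labels name mm10. The deposited counts are raw, per gene and cell barcode, with hashtag counts as further rows. Cells with at least 200 genes and at most 20% mitochondrial UMIs were kept, hashtags were called by a 2-component Gaussian mixture, and cells were clustered (scanpy 1.11.5, Leiden) without the complement genes. Scrublet called 1 Empty vector and 4 Bmal1 WT doublets, too few for a working call, so its calls were not used and doublets were kept. Classes were named from marker lists, and some naming conditions were set after seeing the clusters. UMIs were summed per class and hashtag replicate and tested with edgeR 4.0.16 (quasi-likelihood, library size the total UMIs, a minimum of 100 UMIs per gene across 6 replicates, Benjamini-Hochberg over all genes tested). The fit was checked on simulated counts with a fixed spread between replicates, the same for every gene. Such a check does not show how the fit behaves on the spread of these replicates. CPM is UMIs per 1000000 and, as 1 tag marks 1 molecule, is not divided by length. Totals were 4655548 to 11873279 UMIs per replicate. Alternatives were TMM scaling, DESeq2 1.42.0, no gene filter, stricter cells, another hashtag call, other classes and each replicate left out. The bHLH files repeat the Bmal1 WT files and were left out. Members, marker lists and the pathway list were chosen with earlier results of these data known. All members were named, with other pathway genes that passed the test or held at least 100 UMIs in a class, and the 3 genes most alike C1qa, C3, C4b and C5ar1, except that some of these genes are not reported here. Hc, C6 and C7, Arntl and the genes checked beside C4b fall outside this rule and were named after their values were seen. The paper does not describe this experiment and was used for style.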

Additional observations from a re-analysis of the deposited data

Results flagged for a closer look

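Signal outside the comparisons was seen for C1q in clusters where no member was tested, set between groups as the pooled level of all cells. Only levels higher in Bmal1 WT were searched for, so the flagged cases share that direction by rule. Cases the other way exist: in the cluster led by Serpinb2, C1qb was at 23.7 CPM (10 UMIs) in Empty vector and 0.845 CPM (2 UMIs) in Bmal1 WT. C3 was at 9.47 CPM (4 UMIs) and 0.422 CPM (1 UMI) there, and 1 Empty vector cell held all 13 C1q UMIs. In the cluster led by Mgl2 (118 Empty vector and 46 Bmal1 WT cells) C1qa was at 151 CPM in Bmal1 WT and 6.47 CPM in Empty vector, C1qb at 168 and 5.97 CPM, C1qc at 84.0 and 3.48 CPM, and C3 at 34.4 CPM against 0 UMIs. The replicates overlapped: C1qa was at 0, 1.31 and 21.01 CPM in h1, h7 and h8 and at 93.0, 408 and 0 CPM in h3, h5 and h9, and h9 held no UMI of the other chains or C3 either. Of the 398 C1q UMIs in the Bmal1 WT cells, 186 lay in 1 cell and 4 cells held 10 or more.

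In dendritic-cell-like cells (290 and 244) C1qa was at 33.1 CPM, C1qb at 16.2 CPM and C1qc at 20.3 CPM in Bmal1 WT against 0 UMIs of each in Empty vector. By replicate C1qa was at 1.77, 1.29 and 130 CPM in h3, h5 and h9, from 2, 1 and 84 UMIs, and at 0 in h1, h7 and h8. Of the 185 C1q UMIs 168 lay in 1 cell of h9. Groups of 3 replicates were too small for a test of single far values.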

How the results depend on the processing

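Of 246 values recomputed under other settings 225 were counted as unchanged, and of 201 with a replicate left out 179 were. Unchanged meant the same direction and side of the threshold. Folds with cells lacking a hashtag added had no test, and were counted as unchanged when within the SE of the main fold. A missing DESeq2 adjusted p was counted as not called, so the first count overstates how many tests kept their side. In macrophage-like cells DESeq2 called 1 member (3.55% of genes given an adjusted p), and without the gene filter edgeR called 4 (1.36% of genes). Without the filter 1 was called in monocyte-like (1.16%) and 1 in fibroblast-like cells (1.31%). Leaving out replicates gave 0 to 1 members called over all cells (C3 without h3, adjusted p = 0.0493 in edgeR), 0 in every class, and a C1q share difference of 9.93 to 22.8 points. The share of all genes called without h3 is not reported here, so this call cannot be set apart from a wider shift. With every replicate in, edgeR called 0% of 12042 genes over all cells, and 24.4% had an unadjusted p under 0.05. Without the replicate block the interaction called 0 members. No paired analysis was possible between groups because they share no hashtag.

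Signs turned as follows, and the cause was not tested. With cells gated singly the log2 fold was 0.048 for macrophage-like C5ar1, 0.10 for monocyte-like C3 and -0.37 for melanoma-like C4b, the last also at -0.23 with another hashtag call and -0.40 with cells lacking a hashtag. Clusters made with complement genes gave 1.61, 1.58 and 1.36 for inflammatory C1qa, C1qb and C1qc, and no macrophage-like class. Cfb over all cells was 0.028 with TMM, 0.018 with DESeq2 and 0.15 without high Scrublet scores. With replicates left out, inflammatory C1qb ran from -0.71 to 0.57 and C1qc from -0.89 to 0.91, monocyte-like C5ar1 from -0.42 to 0.51, fibroblast-like Serping1 from -0.31 to 0.37 and melanoma-like C4b from -0.36 to 0.85. Over all cells C4b ran from -0.10 to 1.49, Cfb from -0.31 to 0.31 and C5ar1 from -0.71 to 0.053. The difference between macrophage-like and monocyte-like effects ran from -1.18 to 4.23 for C1qa, -0.38 to 1.86 for C1qb, -0.42 to 5.57 for C1qc and -0.88 to 0.22 for C3. For the C1q chains these ranges rest on few monocyte-like UMIs. The stricter cell filter left no melanoma-like test. Small classes and 1 channel per group limit each comparison.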
